A study of Mus musculus with 4 samples.

Results

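The pituitary and hypothalamic hormone genes considered here are Gh, Prl, Pomc, Hcrt, Avp, Oxt, Cga and Trh, measured in hippocampal RNA. They were taken by name as the probe sets that the platform annotation pairs with 1 of these 8 symbols and no other. Each probe set is several short probes read together as 1 transcript. The 8 genes have 9 probe sets, 2 of them for Cga, among 12422 probe sets and 8251 named genes in all. The 8 genes were selected on their measured signals in the comparison of APPSw with control arrays, known from earlier work on these data. Their differences are therefore given as a description, with no test.

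The study hybridised left hippocampal RNA of male mice, 12 months old, to 4 oligonucleotide arrays. The APPSw group has 2 arrays from Tg2576 mice, which overexpress amyloid precursor protein carrying the Swedish mutation, and the control group has 2 arrays from nontransgenic mice (C57B6/SJL). In the Tg2576 line a human APP coding sequence is driven by the hamster prion protein promoter, so the transgene is not confined to 1 cell type. Each array is labelled as the RNA of a mouse, and nothing states whether the animals were littermates or otherwise paired, so a p-value covers the spread between these samples alone, some of which may be technical. Values are MAS 5.0 signals, linear brightness values that the authors scaled to a common target of 2500. Only 2 arrays per group limit the precision of every value.

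Hormone genes of the pituitary and hypothalamus encode secreted proteins or larger precursors that are cut into peptides. Gh and Prl are made in the somatotroph and lactotroph cells of the anterior pituitary, and Cga encodes the alpha subunit shared by luteinizing hormone, follicle-stimulating hormone and thyroid-stimulating hormone. Hypothalamic neurons make the neuropeptides of Hcrt, Avp, Oxt and Trh, and Pomc is used by pituitary corticotrophs and by arcuate neurons. The hippocampus is a target of several of these hormones through their receptors, while the main cells that make them lie outside the piece that was dissected.

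Promoter sequences are shown for 3 of these genes, which differed in their pattern over the arrays. Prl was brightest on APPSw 1, Hcrt was dimmer on both APPSw arrays, and Oxt was brighter on both. The sequences are the 250 bases before the annotated start, 5′ to 3′, from RefSeq (GRCm38.p6), where 7 of the 8 genes were matched. Capitals mark matches, on either strand, to the TATA box TATAAA, to ATGNATA (a short form of the site bound by the pituitary factor POU1F1), or to AGGTCA (a short element bound by many nuclear receptors).
Prl, chr13:27057320-27057569, plus strand: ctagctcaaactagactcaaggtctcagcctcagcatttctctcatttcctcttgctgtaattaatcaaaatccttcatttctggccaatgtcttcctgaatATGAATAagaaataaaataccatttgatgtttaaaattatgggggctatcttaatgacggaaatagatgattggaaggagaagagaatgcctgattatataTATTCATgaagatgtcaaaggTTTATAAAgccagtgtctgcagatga
Hcrt, chr11:100762932-100763181, minus strand: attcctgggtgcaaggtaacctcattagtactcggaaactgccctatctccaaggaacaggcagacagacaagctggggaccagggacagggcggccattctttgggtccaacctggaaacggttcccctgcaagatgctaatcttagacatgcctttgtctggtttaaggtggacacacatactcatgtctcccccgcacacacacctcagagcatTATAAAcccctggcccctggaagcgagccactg
Oxt, chr2:130575919-130576168, plus strand: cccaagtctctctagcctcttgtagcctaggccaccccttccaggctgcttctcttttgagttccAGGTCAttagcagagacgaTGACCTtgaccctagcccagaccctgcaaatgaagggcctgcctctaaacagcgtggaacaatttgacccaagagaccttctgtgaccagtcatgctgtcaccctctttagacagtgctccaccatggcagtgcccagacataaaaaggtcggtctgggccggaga

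The Prl promoter holds ATGNATA 2 times, at 148 to 142 and at 47 to 41 bases before the start, and overlapping TATAAA matches on opposite strands from 26 to 19 bases before it. The Hcrt promoter has 1 TATAAA match, at 33 to 28 bases before the start, and neither of the other motifs. In the Oxt promoter AGGTCA matches lie at 185 to 180 and at 166 to 161 bases before the start. Among the 7 promoters ATGNATA was found in Prl only, against 7.92% of 32851 promoters of the same length. Gh was the gene with no matched promoter, so it was not examined for any of the motifs. TATAAA was found in 4 of the 7 and in 12.4% of all promoters, and AGGTCA in 4 of the 7 and in 14.0%. These matches describe the letters and are not measured binding sites.

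The level of each signal was first set against background, because presence calls were not used here. On each array 15 control probe sets for bacterial genes of Bacillus gave a background range. Their highest signals were 347.2 on APPSw 1, 210 on APPSw 2, 197.5 on control 1 and 295.2 on control 2. Whether bacterial RNA was added to the samples is not known here. As a further guide, 29 genes of distant organs, such as sperm protamines and pancreatic enzymes, had median signals of 193.8 and 200.45 on the APPSw arrays and 201.95 and 252.25 on the controls, but single probe sets among them reached 3529.3 and 3126.4 on the APPSw arrays and 2521.4 and 3991 on the controls. A signal of that size therefore does not by itself show that a gene is transcribed in the tissue.

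**Figure D1:**
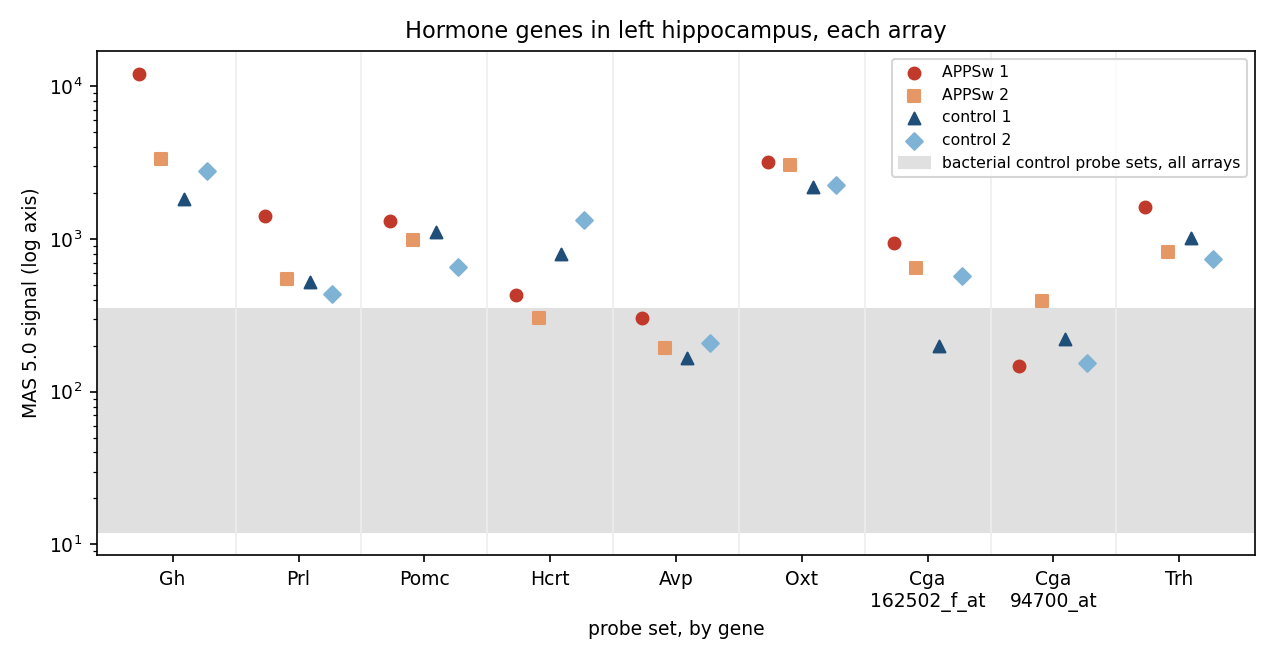
MAS 5.0 signal (log axis) of the 9 hormone probe sets on each array, APPSw arrays left of controls, with the range of the bacterial control probe sets over all arrays as a grey band. Gh is at 12054.2 on APPSw 1, and the Avp points all lie in the band. The Hcrt point of APPSw 2 and the control 1 point of Cga by 162502_f_at also lie in the band, although each is above the highest bacterial control of its own array. The points of Cga by 94700_at lie in the band except that of APPSw 2. Of those inside, only control 1 is above the highest bacterial control of its own array.

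By this yardstick 7 of the 9 probe sets were above the bacterial controls of their array on all 4 arrays. The exceptions were Avp, on 0 of 4 arrays, and the Cga probe set 94700_at, on 2 of 4. A filter at the 40th percentile of the mean log2 signal, equal to a geometric mean of 565, kept 6 of the 9, those of Gh, Prl, Pomc, Hcrt, Oxt and Trh. Avp and both Cga probe sets fell under it. Hcrt was above 565 on the controls only, with 431.3 and 303.2 in APPSw mice. Prl was above 565 on APPSw 1 only, at 1402.8. Each of these genes therefore passed through the arrays where it was high. Bulk hippocampal RNA cannot tell fewer cells of a type from less RNA per cell.

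Gh, the growth hormone gene of pituitary somatotrophs, had signals of 12054.2 and 3329.5 in APPSw 1 and APPSw 2, against 1819.8 and 2800.2 in control 1 and control 2. Both APPSw arrays lay above both controls, but APPSw 1 was 3.62-fold above APPSw 2, and the next array below, control 2, was close to APPSw 2. The mean signal was 7692 ± 6169 (SD, n = 2) in APPSw mice and 2310 ± 693 (SD, n = 2) in controls, a log2 difference of 1.49, or 2.81-fold. Without APPSw 1 the log2 difference was 0.56. On APPSw 1 none of the 36 probe sets of distant-organ genes was as bright as Gh (0 of 36), against 0 on APPSw 2 and 2 on each control.

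Prl, which encodes prolactin, the hormone of lactotroph cells, had signals of 1402.8 and 546.1 in APPSw mice and 525.1 and 437.9 in controls. APPSw 1 again stood apart, 2.57-fold above APPSw 2, while APPSw 2 was only slightly above control 1. Means were 974 ± 606 (SD, n = 2) in APPSw mice and 481.5 ± 61.7 (SD, n = 2) in controls. The log2 difference of 0.87 became 0.19 without APPSw 1, and after quantile normalization the groups overlapped. Of the 36 distant-organ probe sets, 4 were at least as bright as Prl on APPSw 1, 11 on APPSw 2, 10 on control 1 and 14 on control 2.

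Cga, the shared alpha subunit of the glycoprotein hormones, was measured by 2 probe sets that did not follow each other. Probe set 162502_f_at, whose suffix marks probes that can match related sequences, gave 938.6 and 640.9 in APPSw mice and 200 and 574.2 in controls. Its groups did not overlap, but control 1 was far below control 2 and at the level of the highest bacterial control of its array, 197.5. The log2 difference of 1.19 rests on that signal, being 0.43 without control 1 and 1.96 without control 2. Probe set 94700_at gave 148.0 and 389.6 in APPSw mice and 221.7 and 154.4 in controls. Here APPSw 1 was the lowest of the arrays and APPSw 2 the highest. Only APPSw 2 and control 1 were above the bacterial controls of their array, so no fold is given.

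Pomc, the precursor of corticotropin, melanocortins and beta-endorphin, had signals of 1302.7 and 986.5 in APPSw mice and 1115.2 and 652.7 in controls. The groups overlapped, since control 1 was above APPSw 2. Means were 1145 ± 224 (SD, n = 2) in APPSw mice and 884 ± 327 (SD, n = 2) in controls. The log2 difference was 0.41, and 0.02 without control 2.

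Hcrt, whose precursor gives the hypocretin (orexin) peptides of lateral hypothalamic neurons that sustain wakefulness, had 431.3 and 303.2 in APPSw mice and 796.7 and 1323.0 in controls. It was the only hormone probe set with a lower mean in APPSw mice, and its groups did not overlap. Means were 367 ± 90.6 (SD, n = 2) in APPSw mice and 1060 ± 372 (SD, n = 2) in controls, a log2 difference of -1.51, so the control level was 2.84-fold the APPSw level. The controls differed from each other by 1.66-fold and the APPSw arrays by 1.42-fold. With an array left out the difference ranged from -1.87 to -1.14, and with a floor of 250 or a pseudocount of 250 and the other settings tried it ranged from -1.64 to -1.06. Of the 36 distant-organ probe sets, 14 and 15 were at least as bright as Hcrt on the APPSw arrays and 8 and 4 on the controls.

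Oxt, the precursor of oxytocin and its neurophysin, had 3181.7 and 3058.1 in APPSw mice and 2188.2 and 2240.7 in controls. The replicates of Oxt were the closest of all 9 hormone probe sets, 1.04-fold apart in APPSw mice and 1.02-fold in controls, and the groups did not overlap. Means were 3120 ± 87.4 (SD, n = 2) in APPSw mice and 2214 ± 37.1 (SD, n = 2) in controls. The log2 difference of 0.49, or 1.41-fold, stayed between 0.47 and 0.52 with any array left out and between 0.45 and 0.49 under the other settings. On every array 1 or 2 of the 36 distant-organ probe sets were at least as bright.

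Avp, the precursor of vasopressin and the neighbour of Oxt in the RefSeq gene order, gave 303.1 and 192.6 in APPSw mice and 165.5 and 209.7 in controls. All 4 signals lay inside the range of the bacterial controls of their own array, so no fold is given. The groups overlapped. The Oxt probe set, by contrast, was above the bacterial controls on all 4 arrays.

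Trh, the precursor of thyrotropin-releasing hormone, had 1613.9 and 826.0 in APPSw mice and 1006.5 and 735.9 in controls. APPSw 1 was highest, and control 1 lay above APPSw 2, so the groups overlapped. Means were 1220 ± 557 (SD, n = 2) in APPSw mice and 871 ± 191 (SD, n = 2) in controls. The log2 difference of 0.42 had no stable sign, being -0.06 without APPSw 1.

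**Figure D2:**
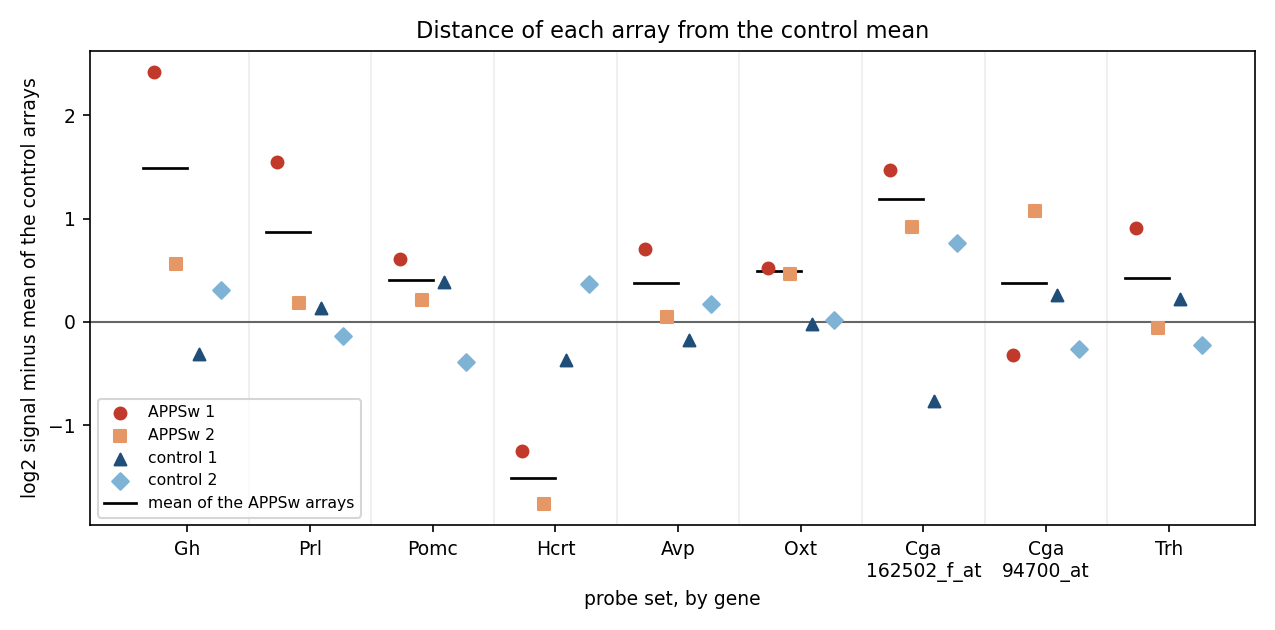
Log2 signal of each array minus the mean of the control arrays for the 9 hormone probe sets; short black lines are the mean of the APPSw arrays. Gh and Prl lie far above the control mean on APPSw 1 only, Oxt is shifted alike on both APPSw arrays, and Hcrt lies below the controls on both.

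Over the 9 probe sets the median log2 difference was 0.42, with 8 above 0 and 1 below, against a median of 0.06 over all 12422 probe sets and 0.21 over the 4969 that the filter left out. The APPSw and control signals did not overlap for 5 of the 9, as for 39.3% of all probe sets. The 4 higher ones were Gh, Prl, Oxt and Cga by 162502_f_at, against 23.6% of all probe sets, and the lower one was Hcrt, against 15.7%. APPSw 1 had the highest signal for 7 of the 9, and for 29.8% of all probe sets. Since this contrast was known when the genes were proposed, nothing further is read from these counts. Without APPSw 1 the median was 0.21, and without APPSw 2 it was 0.70.

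In limma's fit across the 7453 kept probe sets 0 passed an adjusted p of 0.05 (0%), while 600 probe sets (8.05%) had an unadjusted p under 0.05, 352 of them higher in APPSw mice (4.72%) and 248 lower (3.33%). The lowest adjusted p in the table was 0.599.

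The pattern of Gh over the 4 arrays was compared with the other 6731 kept probe sets of named genes by the root mean square difference of their centred log2 signals. The nearest was Lbp, a lipopolysaccharide-binding protein that is also a choroid plexus marker, at 0.18, with signals of 4992.0 and 1362.0 in APPSw mice and 953.6 and 1501.6 in controls. Next came Six2, a homeobox transcription factor, at 0.25, and Cdkn1c, a cell cycle inhibitor, at 0.27, both with APPSw 1 over 4-fold above each other array. Igf2 ranked 4, at 0.30, and Prl ranked 11, at 0.47. Trh ranked 159, Oxt 573, Pomc 1053 and Hcrt 6701 of 6731. Of other choroid plexus markers compared, Igfbp2 ranked 17, Kl 117, Folr1 204 and Ttr 6658. The measure counts the size of a swing as well as its shape. Ttr, also highest on APPSw 1, swung more widely than Gh. Its shape differed too, with 8907.6 on control 1 and 1895.6 on control 2, against 1819.8 and 2800.2 for Gh. Over 4 arrays such likeness is a description only.

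For Cga, the member with the second widest range over the arrays by 162502_f_at, the nearest kept probe sets were those of Abhd17a, a depalmitoylating enzyme, at 0.08, of Lpl, lipoprotein lipase, at 0.15, and of the mitochondrial chaperone Hspd1 at 0.19. Each of the 3 was lowest on control 1. Abhd17a had 1005.5 and 800.5 in APPSw mice and 225.3 and 642.7 in controls.

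Markers of the choroid plexus, the epithelium beside the hippocampus that makes cerebrospinal fluid, were mostly highest on the same array as Gh and Prl. Of 13 listed markers 9 were measured. By each gene's brightest probe set 8 of the 9 were highest on APPSw 1, against 29.8% of all probe sets. Their summed signals were 143098 on APPSw 1 and 20457 on APPSw 2, against 26423 and 17215 on the controls. Most of the APPSw 1 sum came from Ttr, at 83383.9, and Igf2, at 30368.1. The controls were also far apart for Ttr, at 8907.6 and 1895.6. The 7 kept markers had a median of 2.03 above the control mean in log2 on APPSw 1 and of 0.19 on APPSw 2. Between the controls, control 1 was above control 2 by a median of 0.47 over the 7, with Lbp alone the other way. Gh was also the other way, with 1819.8 on control 1 and 2800.2 on control 2, while Prl had 525.1 and 437.9. The thyroxine carrier Ttr had a log2 difference of 2.00 and Igfbp2 one of 0.64. Igf2 had 1.12 by its kept probe set and -0.27 by its other, which lay under the filter. By limma 0 of the 7 passed, and 1 had an unadjusted p under 0.05, against 8.05% of all kept probe sets. It was the cytochrome c oxidase subunit gene Cox8b, at 0.73 (SE 0.28). The part of the markers in the Gh and Prl signals was not tested.

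Markers of hippocampal principal neurons mostly ran the other way. Of 12 listed, 10 were measured and 9 kept. Among the kept was Nrgn, the calmodulin-binding protein neurogranin, with 14117.3 and 9474.4 in APPSw mice and 19475.7 and 18465.7 in controls. Prox1 lay under the filter, with 575.9 and 257.7 in APPSw mice and 679.2 and 552.5 in controls. The list's median log2 difference was -0.53, with 8 of 9 below 0, and came to -0.30 without control 1 and -0.32 without APPSw 2. The exception was Camk2a, at 0.0006 by its brightest probe set and 0.44 by its other. By limma 0 of the 9 passed and 4 had an unadjusted p under 0.05, all lower, against 3.33% of all kept probe sets. The 4 were Nrgn, Bok, Spock1 and Lct. Neurod2, a neuronal transcription factor, had a difference of -0.40 (SE 0.23) and Wfs1, a marker of CA1 neurons, -0.0039 (SE 0.20). The part of this shift in the Hcrt values was not tested. Thalamus markers, from tissue next to the hippocampus, had a median of -0.07 over 5 kept genes, and by limma 0 passed and 0 had an unadjusted p under 0.05. Among them were Calb2, a calcium-binding protein, at 0.07 (SE 0.22), Prkcd, a protein kinase C, at -0.07 (SE 0.19), and the transcription factor Lef1, at -0.20 (SE 0.35). Of 6 striatum markers 1 was measured, Rgs9, and the filter left it out. The genes of distant organs had a median of 0.16 over 11 kept genes, 10 above 0 and 1 below. That median had no stable sign, being -0.01 without control 1, 0.40 without control 2 and 0.03 with no filter. Among these genes were the pancreatic chymotrypsinogen gene Ctrb1 at 0.03 (SE 0.26), the sperm protein gene Tnp1 at 0.29 (SE 0.198) and the liver enzyme gene Cyp2e1 at 0.06 (SE 0.18). By limma 0 of these passed. Cela2a, Acta1 and Myh4, 3 of the 11, had an unadjusted p under 0.05, all higher in APPSw mice, against 4.72% of kept probe sets.

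**Figure D3:**
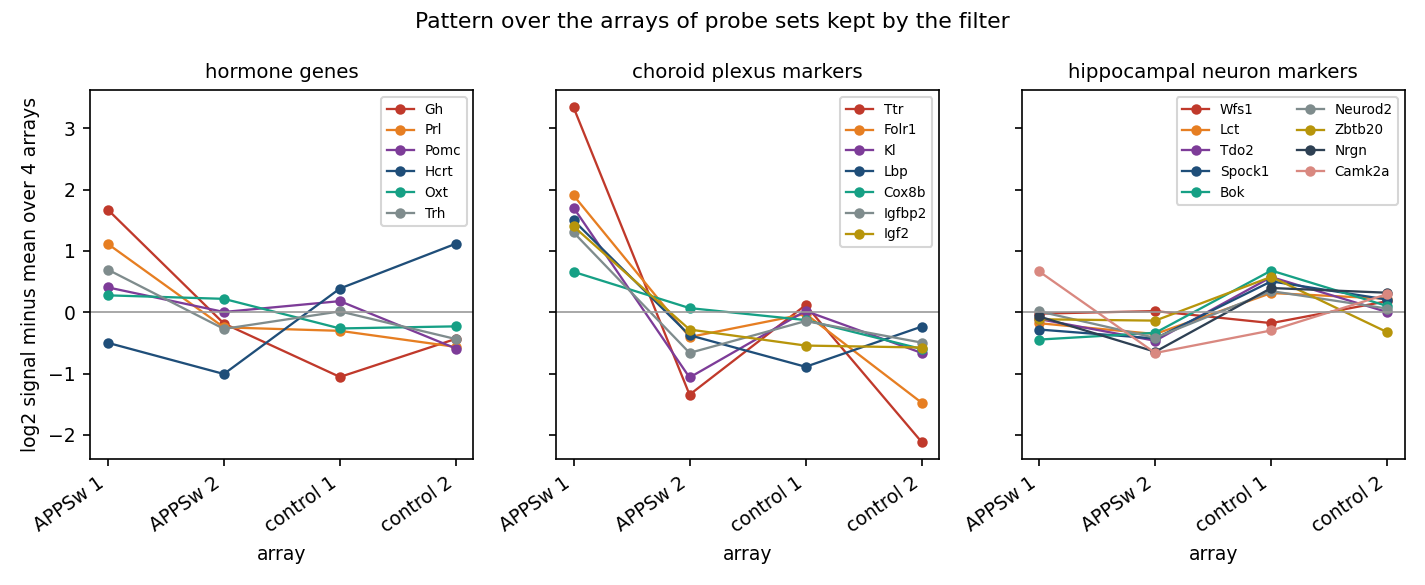
Log2 signal of each array minus the gene's mean over the 4 arrays, for kept hormone genes, choroid plexus markers and hippocampal neuron markers; lines join the values of a gene and imply no order of arrays. Gh, Prl and all 7 choroid plexus markers peak on APPSw 1, while Hcrt is highest on control 2. Prl passed the filter through APPSw 1 and Hcrt through the controls.

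Genes that mark the pituitary and hypothalamus themselves lay mostly under the filter. Among the hormone beta subunits, Lhb, of luteinizing hormone, had 3384.4 and 2689.3 in APPSw mice and 2767.2 and 2814.9 in controls, a log2 difference of 0.11 (SE 0.19). Fshb, of follicle-stimulating hormone, had 507.6 and 312.5 in APPSw mice and 234.0 and 193.9 in controls, and Tshb, of thyroid-stimulating hormone, 160.5 and 226.4 in APPSw mice and 108.2 and 129.9 in controls. Both lay under the filter. Of 9 pituitary transcription factors 4 were measured and 2 kept. Pitx1 had a difference of 0.92 (SE 0.64) with replicates far apart, and Nr5a1 one of -0.08 (SE 0.17) by the brightest of its 5 probe sets, which did not share a sign. Hesx1 and Lhx3 lay under the filter, Hesx1 at 29.8 and 33.1 in APPSw mice and 39.4 and 47.2 in controls. The list's summed signal was 14207 and 14286 on the APPSw arrays and 13540 and 15239 on the controls, most of it from Nr5a1. Of 10 hypothalamic transcription factors 6 were measured and 2 kept, Arnt2 at -0.35 (SE 0.37) and Otp, needed for neuroendocrine neurons of the hypothalamus, at 0.51 (SE 0.23). Their summed signals were 3721 and 2404 on the APPSw arrays and 2328 and 5642 on the controls, where Pou3f2 alone gave 2286.2 on control 2. By limma 0 kept genes of these 3 lists passed and 0 had an unadjusted p under 0.05.

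Among hypothalamic releasing factors and neuropeptides, 6 of 12 were measured and 5 kept, with a median log2 difference of 0.13, 3 above 0 and 2 below. The 3 brightest were Sst, somatostatin, which restrains growth hormone release and is also made by hippocampal interneurons, at -0.40 (SE 0.19), the feeding peptide gene Npy at -0.15 (SE 0.21), and galanin, Gal, at 0.13 (SE 0.19). By limma 0 passed, and 2 had an unadjusted p under 0.05, both higher, against 4.72% of all kept probe sets. These were Adcyap1, the gene of the pituitary adenylate cyclase-activating peptide, at 0.78 (SE 0.18, adjusted p = 0.599), and Gnrh1, of gonadotropin-releasing hormone, at 0.53 (SE 0.17, adjusted p = 0.599), named here after their values were seen. Adcyap1 had 1107.6 and 1144.4 in APPSw mice and 606.3 and 707.9 in controls, and Gnrh1 had 1510.4 and 1490.4 in APPSw mice and 1022.4 and 1057.1 in controls.

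Receptors through which the hormones act lay under the filter in most cases. Of 20 listed, 12 were measured and 4 kept, all 4 with a difference above 0 and a median of 0.48, which was 0.17 with the filter at the 60th percentile and 0.30 without control 1. By limma 0 passed and 0 had an unadjusted p under 0.05. Mc1r, Mc2r and Mc5r, receptors for melanocortins or corticotropin cut from Pomc, had log2 differences of 0.57 (SE 0.24), 0.60 (SE 0.25) and 0.39 (SE 0.18). Fshr, the follicle-stimulating hormone receptor, had 0.17 (SE 0.19). The growth hormone receptor Ghr lay under the filter, with 0.66 and -0.46 by its 2 probe sets, as did the vasopressin receptor Avpr1a. In the list as measured, 9 of 12 genes had groups that did not overlap, each higher in APPSw mice. Of all probe sets 39.3% did not overlap, and 23.6% were higher without overlap. Most of the 9 lay under the filter, where the median log2 difference of all probe sets was 0.21. Oprm1, an opioid receptor, had 51.9 and 63.1 in APPSw mice and 22.6 and 34.1 in controls, inside the bacterial range. Nothing is read from this count.

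Pituitary receptors for releasing factors were all 10 measured and 5 kept, with a median of 0.36, which was 0.15 without control 1 and 0.22 without control 2. Sstr4, a somatostatin receptor also used in hippocampus, had a difference of -0.02 (SE 0.23), its relative Sstr2 had 1.02 (SE 0.61) by its brightest probe set and -0.24 and 0.36 by others, and Ghrhr, the growth hormone-releasing hormone receptor, had 0.54 (SE 0.20). By limma 0 passed, and 1, Ghrhr, had an unadjusted p under 0.05, against 8.05% of all kept probe sets.

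Enzymes and granule proteins that process and store prohormones mostly passed the filter. Of 15 listed, 12 were measured and 10 kept, 4 above 0 and 6 below, with a median log2 difference of -0.14. Cpe, the carboxypeptidase that trims cut peptides, had 59707.2 and 73947.0 in APPSw mice and 74573.5 and 75489.3 in controls, a difference of -0.18 (SE 0.19). The granule protein gene Chgb had 0.22 (SE 0.18) and Pcsk1n, an inhibitor of a prohormone convertase, -0.17 (SE 0.18). Downstream of growth hormone and prolactin, 7 of 10 genes of the JAK and STAT pathway were kept, with a median of -0.06. Igf1, a target of growth hormone, had 8923.0 and 6569.2 in APPSw mice and 6322.4 and 6909.4 in controls, a difference of 0.21 (SE 0.21). Stat3 had -0.11 (SE 0.21) and Socs2, a growth hormone feedback inhibitor, 0.31 (SE 0.27). In both lists 0 genes passed limma's threshold and 0 had an unadjusted p under 0.05.

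**Figure D4:**
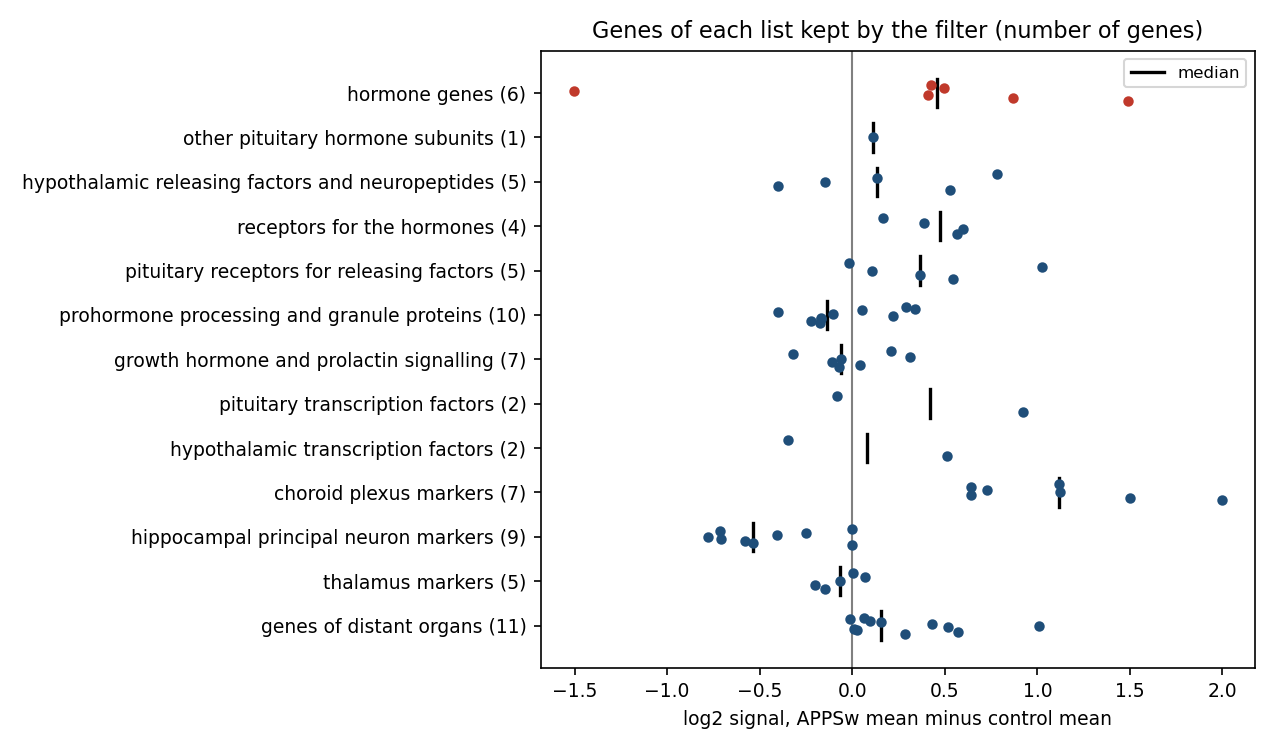
Log2 difference, APPSw mean minus control mean, of the kept genes of each list, with the number of genes in brackets and a black line at the median. Choroid plexus markers lie to the right with a median of 1.12, hippocampal neuron markers to the left with -0.53, and the hormone genes spread from -1.51 for Hcrt to 1.49 for Gh. Hcrt passed the filter through the controls and Prl through APPSw 1.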

How the data were processed

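The authors deposited a linear signal intensity for every probe set of each array. MAS 5.0 produced the signals and the arrays were scaled to 2500, per the labels. The deposited table holds 12488 probe sets on 4 arrays. Background settings and the scanner are not given in the labels, and detection calls were not used here. Left out were 66 control probe sets, used only as a guide to background. Symbols came from the platform annotation, which pairs 10833 probe sets with 1 gene, 396 with several and 1193 with none, and all 8 hormone genes were found in RefSeq under the same symbol.

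Signals were taken as log2 with no further normalization. Probe sets with a mean log2 signal under the 40th percentile were left out of the fit. APPSw and control arrays, 2 each, entered a two-sided limma fit (version 3.58.1, R 4.3.3, eBayes), with p-values adjusted by Benjamini-Hochberg over 7453 probe sets and a threshold of 0.05. The fit was tested on simulated data. SE is limma's moderated one, and a log2 difference is APPSw minus control. A gene in a list is represented by its brightest kept probe set, or its brightest where none was kept. An exact permutation test of 2 arrays against 2 could not pass the threshold.

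The hormone genes and all lists were chosen with earlier results of these data known. The naming rule takes every hormone gene, the kept hormone receptors, up to 3 bright genes of each other list, and the 3 probe sets most like each of the 2 hormone genes with the widest range. The settings varied were the normalization (quantile), the filter (none, or the 60th percentile), a floor or a pseudocount (250 each), a block for the replicate number, a variance trend, and leaving out each array.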

Additional observations from a re-analysis of the deposited data

How the results depend on the processing

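Under all 11 alternatives 0 probe sets and 0 genes of the pathway lists passed limma's adjusted threshold, and the lowest adjusted p ranged from 0.148 without control 2 to 0.634 after quantile normalization. Leaving out an array leaves 1 in that group, and the fit then takes its spread from the other pair alone, which assumes that both groups vary alike. The median log2 difference of the hormone probe sets was 0.34 after quantile normalization, 0.35 with a pseudocount, and 0.21 to 0.70 with an array left out. The filters, the block and the trend leave a gene's own difference as it is by construction. Under the other 7 settings (quantile normalization, floor, pseudocount and each array left out) Gh, Prl, Hcrt and Oxt kept their direction. Their groups do not overlap, so for these genes only quantile normalization could have reversed it. Pomc came down to 0.02 without control 2, and Trh was -0.06 without APPSw 1. With an array left out, Gh ranged from 0.56 to 2.42 and Prl from 0.19 to 1.55. After quantile normalization 3 hormone probe sets were higher and 1 lower with no overlap, against 4 and 1, and over all probe sets 19.1% were higher and 19.2% lower, against 23.6% and 15.7%. With the stricter filter the medians of releasing factors (-0.15), pituitary receptors (-0.02) and growth hormone signalling (0.13) were of the opposite sign to those reported. The processing list had a median of 0.09 without control 1 and 0.04 without APPSw 1. With the replicate number as a block, 0 probe sets passed and 559 had an unadjusted p under 0.05, against 600 without it. Arrays with the same number deviated from their group means with a correlation of -0.02, so the numbers were not taken to pair the mice. Signals near the bacterial controls, as for Avp and Cga, limit what can be said of those genes.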

Other observations

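Genes of the prolactin family other than Prl, most of them known from the placenta, were measured by 10 probe sets of 9 genes, chosen by their symbol after the hormone values were seen. Their signals ran from 8.2 to 358.6 and all were under the filter. Most were no higher than the highest bacterial control of their array, so their order over the arrays carries little information. APPSw 1 was highest for 1 of the 10, against 29.8% of all probe sets. By log2 difference 2 lay above 0 and 8 below. Prl itself was highest on APPSw 1.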
